A study of Mus musculus with 13 samples.

Results

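The 81 genes described here carry the symbols of cytosolic ribosomal proteins, 78 of them annotated as protein coding and 3 as pseudogenes, and they were measured by RNA sequencing of tissue taken from mouse midbrain, at the ventral tegmental area (VTA), where many of the brain's dopamine neurons lie. They are the gene symbols made of Rps or Rpl, a number and optional letters, together with Rplp0, Rplp1 and Rplp2, that reached 10 normalized counts in at least 2 of the 13 samples. Of 26264 genes in the table, 84 carried such a symbol and 3 of these stayed below the minimum: Rpl10l and Rps27rt were at 0 in all libraries, and Rpl39l reached at most 4.70. The 81 genes comprised 31 of the small subunit, 47 of the large subunit and 3 of the stalk. Tested genes numbered 17755 in all.

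All animals were mice of the strain labelled C57BlJ/6 that received a virus in the VTA at postnatal day 14 and were sampled as adults. The groups were Setd7 virus with adult social defeat (n = 2, of which 1 female), Setd7 virus without defeat (Setd7 control, n = 4, of which 2 female), GFP virus with social defeat (GFP defeat, n = 4, of which 2 female) and GFP virus without defeat (GFP control, n = 3, of which 1 female). Setd7 is a lysine methyltransferase and GFP, green fluorescent protein, served as the control transgene. The promoter of the virus, and the cell types it reached, are not given in the sources used here. The labels do not state that libraries came from separate animals, so p-values measure the spread between these samples. In 1 library, Setd7 defeat replicate 1, the sample number in the title differs from that in the description, so that it was not settled whether it holds a single animal.

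Ribosomal protein genes supply a set of proteins, most of which are needed in near equal amounts and bind ribosomal RNA of the small or the large subunit. Most of their messages begin with a cytosine followed by a run of pyrimidines, the terminal oligopyrimidine (TOP) motif, through which the kinase mTOR and the protein LARP1 control their translation. In neurons ribosomes serve protein synthesis in the cell body and near synapses. Mammalian genomes also carry many processed pseudogenes, intronless copies of these messages, which complicates the assignment of reads.

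A pyrimidine run near the start is a sequence feature typical of the family. It is shown here for some of the genes named in the comparisons below that hold it, beside Rpl41, which does not. Other named genes are not printed. Of these Rpl13, Rpl27 and Rps12, for example, also hold a run, while Rpl6 and Rplp0 hold none. Sequences are RefSeq promoter windows of build GRCm38.p6, from 40 bases before the annotated start to 20 bases from it, printed in the sense direction. Capitals mark the longest run of C or T of at least 8 bases. For Rpl4, Rpl5 and Rps25 the marked run ends before the annotated start, so that it lies outside the message as annotated. The order is chr9:64173347-64173406 (+) for Rpl4, chr9:120571477-120571536 (+) for Rpl14, chr5:107900488-107900547 (+) for Rpl5, chr7:3704001-3704060 (+) for Rps9, chr4:86857348-86857407 (-) for Rps6, chr17:33955646-33955705 (-) for Rps18, chr9:44407674-44407733 (+) for Rps25, chr10:128626487-128626546 (-) for Rps26 and chr10:128549149-128549208 (-) for Rpl41.
Rpl4: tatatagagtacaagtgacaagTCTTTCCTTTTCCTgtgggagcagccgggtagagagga
Rpl14: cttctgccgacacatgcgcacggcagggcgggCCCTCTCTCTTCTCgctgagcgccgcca
Rpl5: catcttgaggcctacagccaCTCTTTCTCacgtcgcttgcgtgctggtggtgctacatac
Rps9: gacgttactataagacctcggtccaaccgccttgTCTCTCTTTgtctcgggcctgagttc
Rps6: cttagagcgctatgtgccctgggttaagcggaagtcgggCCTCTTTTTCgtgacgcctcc
Rps18: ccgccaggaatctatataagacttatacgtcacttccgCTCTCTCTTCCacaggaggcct
Rps25: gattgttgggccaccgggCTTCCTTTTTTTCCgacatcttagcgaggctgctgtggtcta
Rps26: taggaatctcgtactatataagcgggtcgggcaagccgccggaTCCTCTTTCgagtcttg
Rpl41: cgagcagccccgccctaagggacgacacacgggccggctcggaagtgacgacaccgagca

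RefSeq had 72 promoter entries for 60 of the 81 genes, among 32851 entries in all. A sense-strand run of at least 8 pyrimidines within these 60 bases was present in 38 of the 72 entries (52.8%), against 24.2% of all entries. On the other strand the share was 15.3%, against 25.5% of all entries. Further motifs were searched on either strand of the whole 300-base window, from 250 bases before to 50 after the start. AAGATGG, a core of the YY1 site, was found in 15.3% of the family's entries and in 6.34% of all entries. CCGGAAG, a core of ETS-family and GABP sites, was found in 33.3% and in 8.86% of all entries. Neither motif occurs in the printed windows. The reverse complement of CCGGAAG starts with pyrimidines, so that its matches can overlap a run, and a match is a description of the letters only.

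The libraries held 26548713 to 50842070 recovered reads, and after division by the size factors their totals ranged over 34620916 to 36997863. Setd7 itself ranged over 28587 to 158680 normalized counts in the 6 Setd7 libraries, above the 10888 to 14538 of the 7 GFP libraries. The unprocessed ribosomal RNA gene Rn45s took 2.16 to 4.68% of normalized counts in these libraries, which were depleted of ribosomal RNA. Dopamine neuron markers summed to 85575 to 103680 normalized counts in Setd7 defeat, 76208 to 145730 in Setd7 control, 32284 to 133360 in GFP defeat and 31031 to 83545 in GFP control. The 11 thalamic markers summed to 17341 to 18230 in Setd7 defeat, 16205 to 17681 in Setd7 control, 16350 to 35690 in GFP defeat and 18767 to 60959 in GFP control, so both lists differed between libraries of 1 group. Setd7 control replicate 4 stood apart with 15737 normalized counts of T cell and antigen presentation markers, and Setd7 defeat replicate 1 with 8121 of meningeal fibroblast markers. The haemoglobin genes Hba-a1, Hba-a2, Hbb-bs and Hbb-bt were at 0 in every library.

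Together the 81 genes took a small share of each library, and that share was lowest in the GFP control libraries. It was 0.209 and 0.190% of normalized counts in the Setd7 defeat libraries, 0.183, 0.192, 0.202 and 0.198% in Setd7 control, 0.183, 0.184, 0.195 and 0.193% in GFP defeat, and 0.172, 0.171 and 0.172% in GFP control. All 3 GFP control libraries thus lay below all 10 others, while the other groups overlapped. The group means were 0.199 ± 0.0131% for Setd7 defeat (SD, n = 2), 0.194 ± 0.00802% for Setd7 control (SD, n = 4), 0.189 ± 0.00606% for GFP defeat (SD, n = 4) and 0.172 ± 0.00049% for GFP control (SD, n = 3). In bulk tissue, fewer cells of a type that is rich in these messages and less message per cell cannot be told apart.

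**Figure D1:**
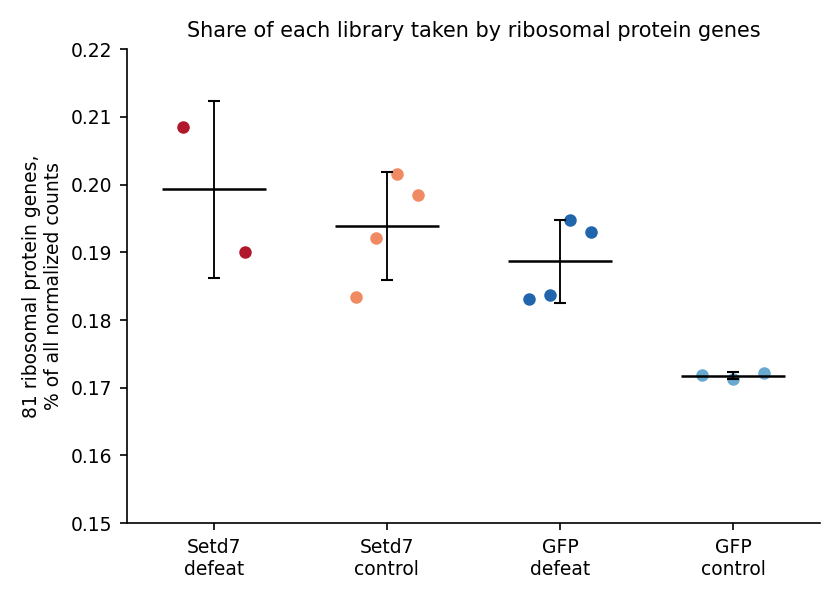
Summed normalized counts of the 81 ribosomal protein genes as a percent of all normalized counts (y axis, from 0.15 to 0.22%), by group. Points are libraries, horizontal lines are means and error bars are SD (n = 2, 4, 4 and 3 from left to right). The 3 GFP control libraries lie at 0.171 to 0.172%, below all 10 others.

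Gene by gene, 1 GFP control library was lowest for many members. The library with the lowest value was a GFP control library for 53 of the 81 genes (65.4%), against 33.1% of all genes tested. The highest value fell in a GFP control library for 2 of the 81. Of all genes tested, 10.4, 9.0 and 11.3% were highest in GFP control replicates 1, 2 and 3. GFP control replicate 1 was lowest for 38 of the 81 genes (46.9%, against 12.5% of all genes), replicate 2 for 4 (4.94%, against 8.01%) and replicate 3 for 11 (13.6%, against 12.6%). Among the GFP control libraries, the excess of the members over all genes thus came from replicate 1. The median deviation of the genes from their own 13-library means was -0.24, -0.15 and -0.06 on the log2 scale in those 3 libraries, and lay between -0.05 and 0.11 in the 10 others. All 3 GFP control libraries lay below all 10 others for 4 of the 81 genes (4.94%), against 1.10% of all genes tested. GFP control replicate 1 also had the fewest recovered reads of the 13 libraries, 26548713, and was the only female of its group. The part of depth or sex in these values was not tested.

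**Figure D2:**
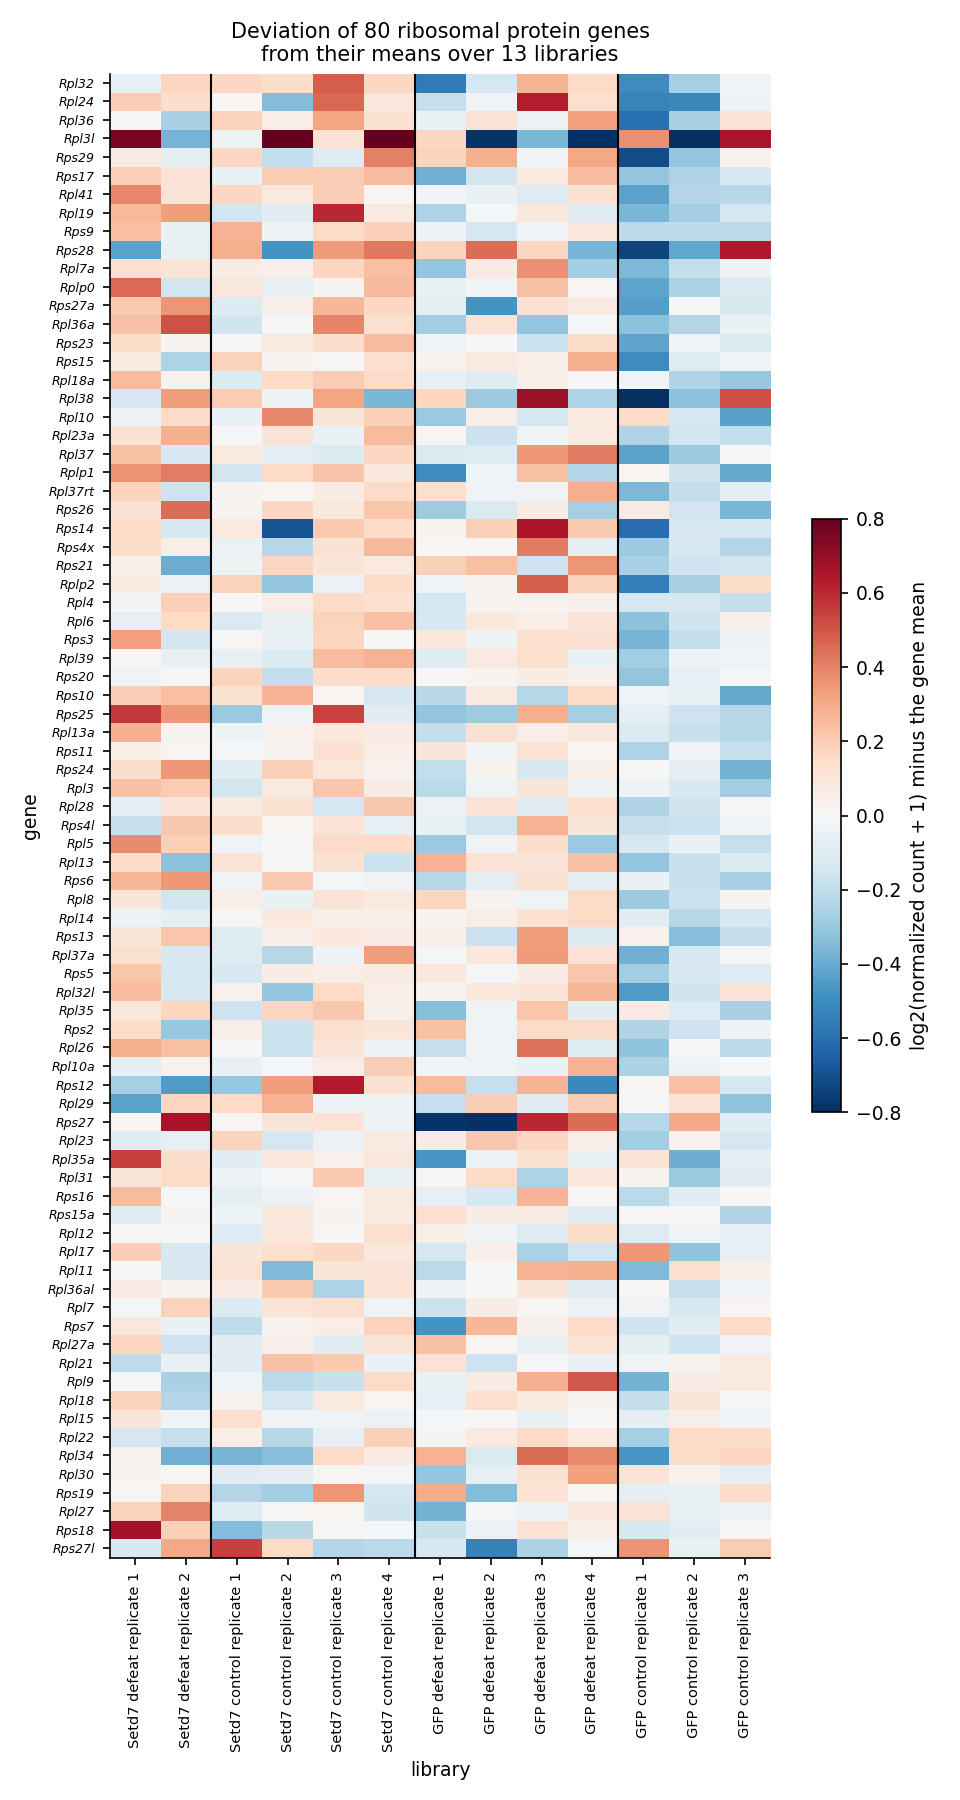
Deviation of 80 of the 81 ribosomal protein genes from their own means over 13 libraries, as log2(normalized count + 1), with genes down the page by their log2 fold change in Setd7 control against GFP control and libraries across. Black lines separate Setd7 defeat, Setd7 control, GFP defeat and GFP control. GFP control replicate 1 holds the lowest value of 38 of the 81 genes, and Rpl3l, at the lowest mean count, varies most between libraries.

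The first comparison, Setd7 control against GFP control, addressed the effect of Setd7 overexpression without adult stress. No ribosomal protein gene passed the adjusted p threshold of 0.05 in limma, the test used throughout, which called 0.0% of the 17755 genes tested. The log2 fold changes were nevertheless mostly above 0: 75 of the 81 genes (92.6%) lay above 0, against 51.4% of all genes tested. Their median log2 fold change was 0.21, a fold of 1.15, and that of all genes was 0.01. At an unadjusted p under 0.05, 27 genes (33.3%) were higher and 0 lower, against 4.31% and 3.70% of all genes tested. Groups did not overlap for 17 genes (21.0%), all higher in Setd7 control, against 4.17% of all genes that were higher and 4.09% that were lower. edgeR called 0 ribosomal protein genes, and DESeq2 called 1, Rpl41, against 0.152% of all genes, and gave no adjusted p for Rpl3l.

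The dopamine and thalamic marker lists moved with this comparison. Of 15 dopamine neuron markers 15 were higher in Setd7 control (median log2 fold change 1.06), and of 11 thalamic markers 0 were (median -0.96). Microglial markers had a median of 0.37 with 9 of 9 higher, and T cell and antigen presentation markers, high within Setd7 control in replicate 4 alone, of 1.02 with 6 of 6 tested higher. Oligodendrocyte markers had a median of 0.15 with 9 of 10 higher, and astrocyte markers a median of 0.0050 with 4 of 8 higher. The part of these lists in the ribosomal result was not tested. A fit without the 3 libraries of low Th (GFP defeat replicate 1, GFP control replicates 2 and 3), the tyrosine hydroxylase gene of dopamine neurons, gave a median of 0.23 over the ribosomal genes. That fit sets the 4 Setd7 control libraries against GFP control replicate 1 alone, the library lowest for 38 genes. A fit that leaves that library out and keeps the others gave 0.20, with 73 of 81 genes higher.

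Rpl41, which encodes the smallest ribosomal protein, a very short basic peptide, was the large-subunit gene with the smallest p. It had 2351 and 1931 normalized counts in Setd7 defeat, 2021, 1898, 2063 and 1814 in Setd7 control, 1775, 1738, 1675 and 1960.3 in GFP defeat and 1339, 1528 and 1547 in GFP control. Every one of the 3 GFP control values lay below the 10 others, and the remaining groups overlapped. The means were 1949 ± 114 in Setd7 control (SD, n = 4) and 1472 ± 115 in GFP control (SD, n = 3), a log2 fold change of 0.41 ± 0.09 (SE; limma adjusted p = 0.539). DESeq2 gave an adjusted p of 0.0435 and edgeR 0.568 for the same difference, and over all alternatives the adjusted p ranged over 0.0435 to 0.861. Rpl41 matched 4 processed copies, none of which has an entry in the table under the same name. Whether reads were shared with them was not tested. Copies with an entry are described below.

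Rpl4, whose product lines the exit tunnel of the large subunit, had 3410.0, 3529, 3788 and 3701 normalized counts in Setd7 control, against 3109, 3109.7 and 2985 in GFP control. The lowest Setd7 control library lay above the highest GFP control library. The log2 fold change was 0.25 ± 0.06 (SE; limma adjusted p = 0.539). Rpl6, a large-subunit protein of the solvent side, had 912, 948, 1119 and 1164 in Setd7 control, against 788, 883 and 1016 in GFP control, so that GFP control replicate 3 lay within the range of Setd7 control. Its log2 fold change was 0.25 ± 0.08 (SE; limma adjusted p = 0.563). Rpl32 had the largest log2 fold change of the family in this comparison, 0.56 ± 0.16 (SE; limma adjusted p = 0.539), with 193, 189.9, 242 and 194 normalized counts in Setd7 control, against 121, 143 and 169 in GFP control. Setd7 control replicate 3, at 242, stood apart from the rest of its group. The copy Rpl32l, 96.04% identical, had 2.99 times the counts of Rpl32, so reads may have been split between them.

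In the small subunit 28 of 31 genes lay above 0 with a median log2 fold change of 0.21, and in the large subunit 44 of 47 with a median of 0.20. Rps9, a protein of the small subunit whose yeast counterpart bears on decoding accuracy, had 1036, 832, 948 and 975 normalized counts in Setd7 control, against 738, 737 and 737 in GFP control. The 3 GFP control values lay closer together than those of any other group, and all were below Setd7 control. The log2 fold change was 0.36 ± 0.10 (SE; limma adjusted p = 0.539).

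Few members lay below 0. Rps27l, a paralog of Rps27 known in mammals as a p53 target, had 103, 77.9, 59.3 and 60.1 normalized counts in Setd7 control, against 89.98, 67.1 and 80.8 in GFP control (log2 fold change -0.12 ± 0.25, SE), and its parent Rps27 had 37.1, 39.3, 39.9 and 35.7 in Setd7 control, against 31.3, 45.7 and 34.5 in GFP control (log2 fold change 0.15 ± 0.33, SE). Rps18 had a log2 fold change of -0.05 ± 0.14, Rpl27 of -0.05 ± 0.15 and Rps19, the gene most often mutated in human Diamond-Blackfan anaemia, of -0.05 ± 0.18 (SE). The limma adjusted p of Rps27l, Rps18, Rpl27 and Rps19 was between 0.919 and 0.960, and each SE exceeded the size of its change.

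The stalk, formed in the ribosome by Rplp0 with pairs of Rplp1 and Rplp2, recruits translation factors. Rplp0 had 1701, 1528, 1621 and 1915 normalized counts in Setd7 control, against 1192, 1339 and 1480.0 in GFP control, without overlap (log2 fold change 0.35 ± 0.14, SE; limma adjusted p = 0.587). Rplp1 had 0.28 ± 0.15 and Rplp2 0.25 ± 0.18 on the same scale (limma adjusted p = 0.669 and 0.751), with Setd7 control and GFP control overlapping for both.

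The second comparison, GFP defeat against GFP control, addressed social defeat in animals with the control virus, and it shares the GFP control libraries with the first. limma again called 0 ribosomal protein genes and 0.0% of all genes. The log2 fold change lay above 0 for 73 of the 81 genes (90.1%), against 49.6% of all genes tested, with a median of 0.18, and of -0.0020 over all genes. At an unadjusted p under 0.05, 24 genes were higher (29.6%) and 0 lower, against 4.87% and 4.38% of all genes. Groups did not overlap for 16 genes (19.8%), all higher in GFP defeat, against 4.26% of all genes higher and 4.74% lower. edgeR and DESeq2 called 0 of the 81, where DESeq2 called 0.467% of all genes and set the adjusted p of 4 ribosomal genes aside. Of 81 genes 69 lay above 0 in both of these comparisons, a count that their shared controls affect.

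Rps14, whose loss features in a human myelodysplastic syndrome, had 286, 320.2, 440.5 and 325 normalized counts in GFP defeat, against 184, 257 and 255 in GFP control (log2 fold change 0.61 ± 0.20, SE; limma adjusted p = 0.423). Rps29, a small zinc-binding protein near the decoding region, had 301, 324, 262 and 331 in GFP defeat, against 162, 213 and 271 in GFP control (log2 fold change 0.54 ± 0.18, SE; limma adjusted p = 0.439). For Rps14 all 4 defeat libraries lay above all 3 controls, while for Rps29 GFP defeat replicate 3 lay below GFP control replicate 3.

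In the large subunit 42 of 47 genes lay above 0, with a median log2 fold change of 0.17. Rpl14 had 1229, 1249.6, 1318 and 1352 normalized counts in GFP defeat, against 1136, 1038 and 1108 in GFP control, without overlap (log2 fold change 0.24 ± 0.07, SE; limma adjusted p = 0.375). Its copy Rpl14-ps1, 98.92% identical, averaged 2185 normalized counts against 1212 for Rpl14, with a log2 fold change of 0.09 here. For Rpl17, named below, the copy Rpl17-ps10 averaged 954 against 231. Reads may have been split between these genes and their copies. Rpl41 had a log2 fold change of 0.28 ± 0.09 (SE; limma adjusted p = 0.423) and Rpl37rt, a near-identical copy of Rpl37 described below, of 0.31 ± 0.10 (SE; limma adjusted p = 0.423); neither overlapped between the groups. On the lower side were Rps27l at -0.42 ± 0.25, Rpl17 at -0.15 ± 0.14, Rpl27 at -0.08 ± 0.15 and Rpl21 at -0.04 ± 0.14 (log2 fold change, SE), with limma adjusted p between 0.633 and 0.954. Rps27l had 64.3, 47.8, 58.7 and 69.5 in GFP defeat, against 89.98, 67.1 and 80.8 in GFP control, with GFP defeat replicate 4 above GFP control replicate 2. Of the stalk, Rplp0 had a log2 fold change of 0.32 ± 0.14, Rplp1 of 0.06 ± 0.15 and Rplp2 of 0.42 ± 0.18 (SE).

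Dopamine neuron markers also moved here, with 15 of 15 higher in GFP defeat (median log2 fold change 0.90) and 1 of 11 thalamic markers higher (median -0.76). Oligodendrocyte markers had a median of 0.20 with 9 of 10 higher, microglial markers 0.06 with 6 of 9 higher, and T cell and antigen presentation markers -0.14 with 3 of 6 higher. Their part in the ribosomal result was not tested. Without the 3 libraries of low Th the ribosomal median was 0.22, from 3 GFP defeat libraries against GFP control replicate 1 alone, and without GFP control replicate 1 it was 0.18.

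**Figure D3:**
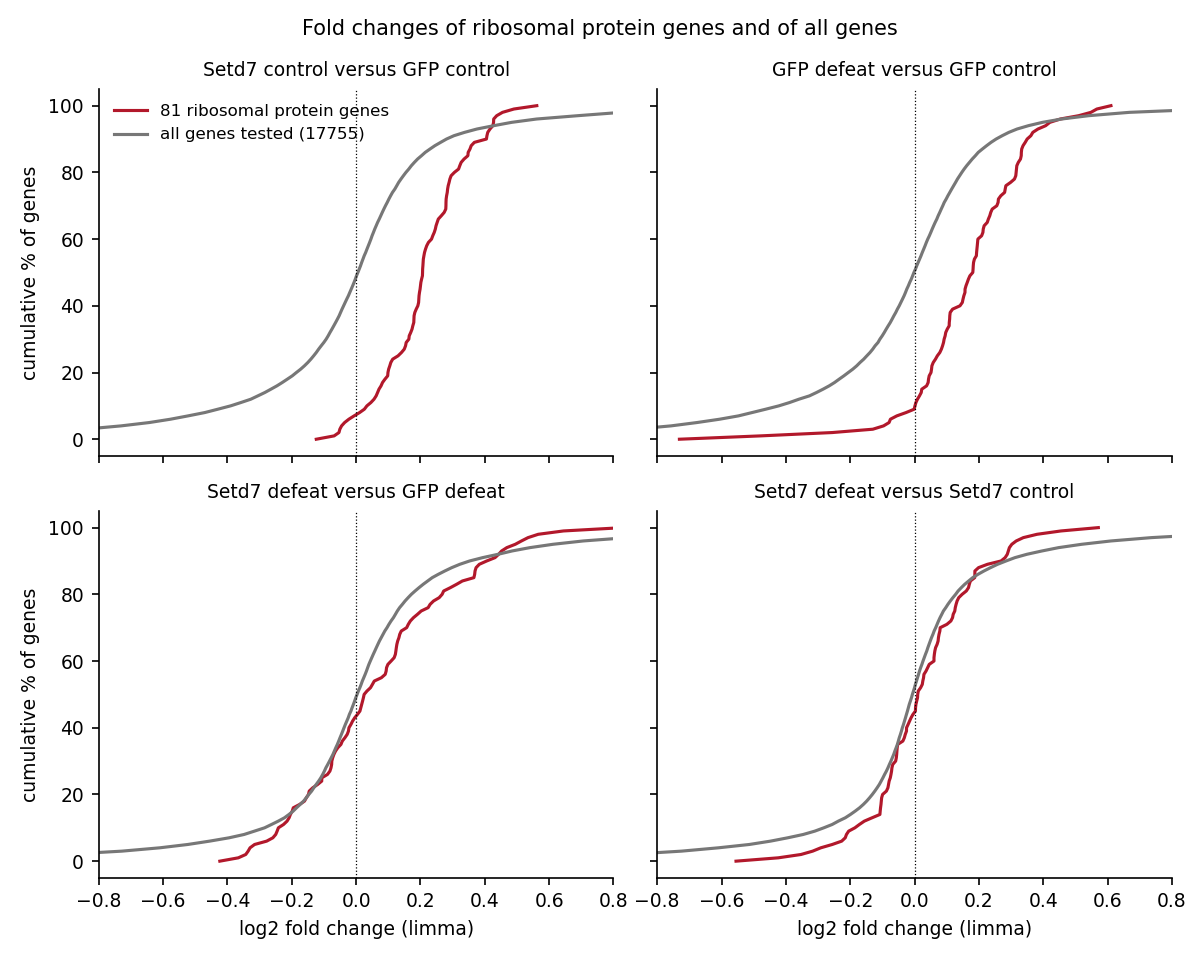
Cumulative percent of genes (y axis) by log2 fold change from limma (x axis, from -0.8 to 0.8) for the 81 ribosomal protein genes (red) and all 17755 genes tested (grey) in 4 comparisons. The red curve is shifted to the right in both comparisons with GFP control, with medians of 0.21 and 0.18. In the 2 others its medians, 0.03 and 0.01, lie near those of the grey curve. In Setd7 defeat against GFP defeat its upper part lies further right, with an upper quartile of 0.20 against 0.13 for all genes.

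The comparisons within defeat and within Setd7 rest on the 2 Setd7 defeat libraries. In Setd7 defeat against GFP defeat 46 of 81 genes lay above 0 (56.8%), against 50.8% of all genes, with a median log2 fold change of 0.03. limma, edgeR and DESeq2 called 0 of the 81, where limma and edgeR called 0.0% and DESeq2 0.0338% of all genes. At an unadjusted p under 0.05, 13 were higher (16.0%), against 2.59% of all genes, and 0 lower, against 2.26%. The groups did not overlap for 15 genes (18.5%) that were higher in Setd7 defeat, against 7.09% of all genes, and for 4 that were lower (4.94%), against 6.98% of all genes. The median was -0.018 without Setd7 defeat replicate 1, with 39 of 81 genes above 0, and 0.11 without replicate 2, with 63 above 0. It was 0.0096 without GFP defeat replicate 1, 0.04 without either replicate 2 or replicate 3 of that group, and -0.014 over the 21 members with a mean of 1000 or more normalized counts, of which 9 lay above 0.

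T cell and antigen presentation markers had the largest median of the marker lists against GFP defeat, 2.25 (log2 fold change) with 6 of 6 tested higher, and against Setd7 control a median of 1.09 with 5 of 6 higher. They summed to 1081 to 1700 normalized counts in Setd7 defeat, 144 to 15737 in Setd7 control and 181 to 353 in GFP defeat. Meningeal fibroblast markers moved with both comparisons of Setd7 defeat, with 8 of 8 higher than in GFP defeat (median log2 fold change 1.31) and 8 of 8 higher than in Setd7 control (median 1.17). They summed to 1685 to 8121 normalized counts in Setd7 defeat, 1279 to 2407 in Setd7 control and 1064 to 2014 in GFP defeat. Endothelial and mural markers were higher for 7 of 8 against GFP defeat (median 0.25) and 8 of 8 against Setd7 control (median 0.25). Against GFP defeat, microglial markers were higher for 9 of 9 (median 0.29), dopamine neuron markers for 14 of 15 (median 0.24) and thalamic markers for 1 of 11 (median -0.19). The part of these lists in the values of the ribosomal genes was not tested.

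Rps6, the substrate of the S6 kinases that act below mTOR, was among the genes without overlap. It had 1771 and 1877 normalized counts in Setd7 defeat, 1446, 1708, 1465 and 1449.7 in Setd7 control, 1260.4, 1396, 1608 and 1399 in GFP defeat and 1425, 1305 and 1231 in GFP control. Both Setd7 defeat libraries lay above the 11 others. The log2 fold change of Setd7 defeat against GFP defeat was 0.37 ± 0.11 (SE; limma adjusted p = 0.990) and against Setd7 control 0.27 ± 0.11 (SE; limma adjusted p = 0.9999). A copy of Rps6 of identical coding sequence has its own entry, so that reads may have been split between them.

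Rplp1 had 5671 and 5866 in Setd7 defeat, against 3113, 4318, 5193 and 3759 in GFP defeat, the log2 fold change being 0.52 ± 0.17 (SE; limma adjusted p = 0.990). Rpl5, which carries 5S ribosomal RNA and with Rpl11 restrains the p53 regulator Mdm2, had 829.4 and 727 in Setd7 defeat, 623, 636, 708 and 712 in Setd7 control, 519, 624, 701 and 519 in GFP defeat and 582, 613 and 560.1 in GFP control. Setd7 defeat was above every other library for Rpl5, with a log2 fold change of 0.41 ± 0.13 against GFP defeat (SE; limma adjusted p = 0.990). Its partner Rpl11 had 182 and 166 in Setd7 defeat, against 157, 183, 221 and 223 in GFP defeat, and a log2 fold change of -0.16 ± 0.18 (SE). The pair thus differed in sign in this comparison. With single libraries left out, however, the log2 fold change of Rpl11 ranged over -0.39 to 0.07, and the difference between them was not tested.

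Small-subunit genes in this comparison were Rps26, which lies where the message leaves the ribosome, at 0.44 ± 0.15, Rps18, a protein of the subunit's head, at 0.45 ± 0.16, and Rps25, which some viral messages need for initiation, at 0.60 ± 0.22 (log2 fold change, SE; limma adjusted p = 0.990 for each). The log2 fold change of Rps18 ranged over 0.11 to 0.79 with single libraries left out. Rps25 had 327 and 280.2 normalized counts in Setd7 defeat, against 177, 181, 270.2 and 183 in GFP defeat, so GFP defeat replicate 3 came closest. The lower genes were Rps21 at -0.33 ± 0.15, Rpl22 at -0.24 ± 0.11, Rpl14 at -0.15 ± 0.08 and Rpl13 at -0.27 ± 0.14 (log2 fold change, SE). Rpl14 and Rpl22 did not overlap between Setd7 defeat and GFP defeat, and Rpl22 had 1054 and 1018 normalized counts in Setd7 defeat, against 1176, 1218, 1285 and 1222 in GFP defeat.

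In Setd7 defeat against Setd7 control 45 of 81 genes (55.6%) lay above 0, against 48.0% of all genes, with a median log2 fold change of 0.01. limma, edgeR and DESeq2 called 0 of the 81, against 0.0%, 0.0% and 0.0394% of all genes. At an unadjusted p under 0.05, 2 genes were higher (2.47%), against 1.45% of all genes, and 0 lower, against 1.13%. The groups did not overlap for 9 genes higher in Setd7 defeat (11.1%, against 4.18% of all genes) and 2 lower, Rpl14 and Rpl36 (2.47%, against 4.96% of all genes). The median turned with the library: it was -0.095 without Setd7 defeat replicate 1 and 0.10 without replicate 2. It was -0.0019 without Setd7 control replicate 1, 0.0052 without replicate 2, -0.0092 without replicate 3 and 0.02 without replicate 4, and -0.019 over the 21 members with a mean of 1000 or more. Rps18 had the smallest p, with 440.3 and 315 normalized counts in Setd7 defeat, against 217, 237, 278 and 274 in Setd7 control (log2 fold change 0.57 ± 0.16, SE; limma adjusted p = 0.9999). Rps6 followed at 0.27 ± 0.11, Rpl27 at 0.35 ± 0.16, Rps25 at 0.43 ± 0.22, Rplp1 at 0.30 ± 0.17 and Rpl26, a protein of the tunnel exit, at 0.29 ± 0.18 (log2 fold change, SE). Lower were Rps12 at -0.55 ± 0.32, Rps21 at -0.26 ± 0.15 and Rpl36 at -0.30 ± 0.20 (log2 fold change, SE). For Rps18 the log2 fold change ranged over 0.23 to 0.91 with single libraries left out.

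Setd7 defeat against GFP control combined both treatments and shares its GFP control libraries with the first and second comparison. Of 81 genes 73 (90.1%) lay above 0, against 51.1% of all genes, with a median log2 fold change of 0.23. The median was 0.14 without Setd7 defeat replicate 1 and 0.36 without replicate 2. The groups did not overlap for 33 genes higher in Setd7 defeat (40.7%), against 11.3% of all genes, and for 2 lower, Rpl21 and Rps12 (2.47%), against 11.1% of all genes. At an unadjusted p under 0.05, 27 genes (33.3%) were higher, against 4.04% of all genes, and 0 lower, against 4.25%. limma and edgeR called 0 and 0.0% of all genes, and DESeq2 called Rpl41 (adjusted p = 0.0117), against 0.130% of all genes. Rpl41 had a log2 fold change of 0.54 ± 0.11 (SE; limma adjusted p = 0.515).

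Cell type markers differed in this comparison as well. Dopamine neuron markers were higher in Setd7 defeat for 15 of 15 (median log2 fold change 1.06) and thalamic markers for 1 of 11 (median -1.17), and the sums of both lists, given above, did not overlap between the groups. T cell and antigen presentation markers were higher for 5 of 6 (median 2.11), summing to 1081 to 1700 normalized counts in Setd7 defeat and 146 to 493 in GFP control. Meningeal fibroblast markers were higher for 8 of 8 (median 0.89), microglial for 8 of 9 (median 0.44), endothelial and mural for 8 of 8 (median 0.27) and oligodendrocyte for 9 of 10 (median 0.24). Their part in the ribosomal values was not tested.

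Averaged over stress, the Setd7 effect had a median log2 fold change of 0.10, with 68 of 81 genes above 0 (84.0%, against 51.0% of all genes). The median was 0.067 without Setd7 defeat replicate 1, with 55 genes above 0, and 0.18 without replicate 2, with 72. limma called 0 of the 81 and 0.00563% of all genes, edgeR likewise 0 and 0.00563%, and DESeq2 called Rpl41 (adjusted p = 0.0344) and 0.0394% of all genes; 23 of the 81 had an unadjusted p under 0.05, all higher, against 3.70% of all genes higher and 3.42% lower. Averaged over virus, the defeat effect had a median of 0.10, with 72 of 81 genes above 0 (88.9%, against 50.3% of all genes). That median was 0.047 without Setd7 defeat replicate 1, with 62 genes above 0, and 0.16 without replicate 2, with 70. limma and edgeR called 0 of the 81 and 0.0% of all genes, DESeq2 called 0 of the 81 and 0.0451% of all genes, and 7 genes had an unadjusted p under 0.05, all higher, against 2.34% of all genes higher and 2.83% lower. The interaction of Setd7 and defeat was below 0 for 58 of the 81 genes, against 49.9% of all genes, with a median of -0.19 and 0 calls by limma, edgeR or DESeq2 among the 81; limma and edgeR called 0.0% and DESeq2 0.00563% of all genes. At an unadjusted p under 0.05, 11 genes lay below 0 and 1 above, against 2.45% and 2.51% of all genes. Without Setd7 defeat replicate 2 the interaction median was -0.067. Both averaged effects and the interaction use the same GFP control libraries as the comparisons above, so they are not separate results. The median for Setd7 virus against GFP virus was 0.21 without defeat and 0.03 with defeat. For defeat against no defeat it was 0.18 with GFP virus and 0.01 with Setd7 virus.

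**Figure D4:**
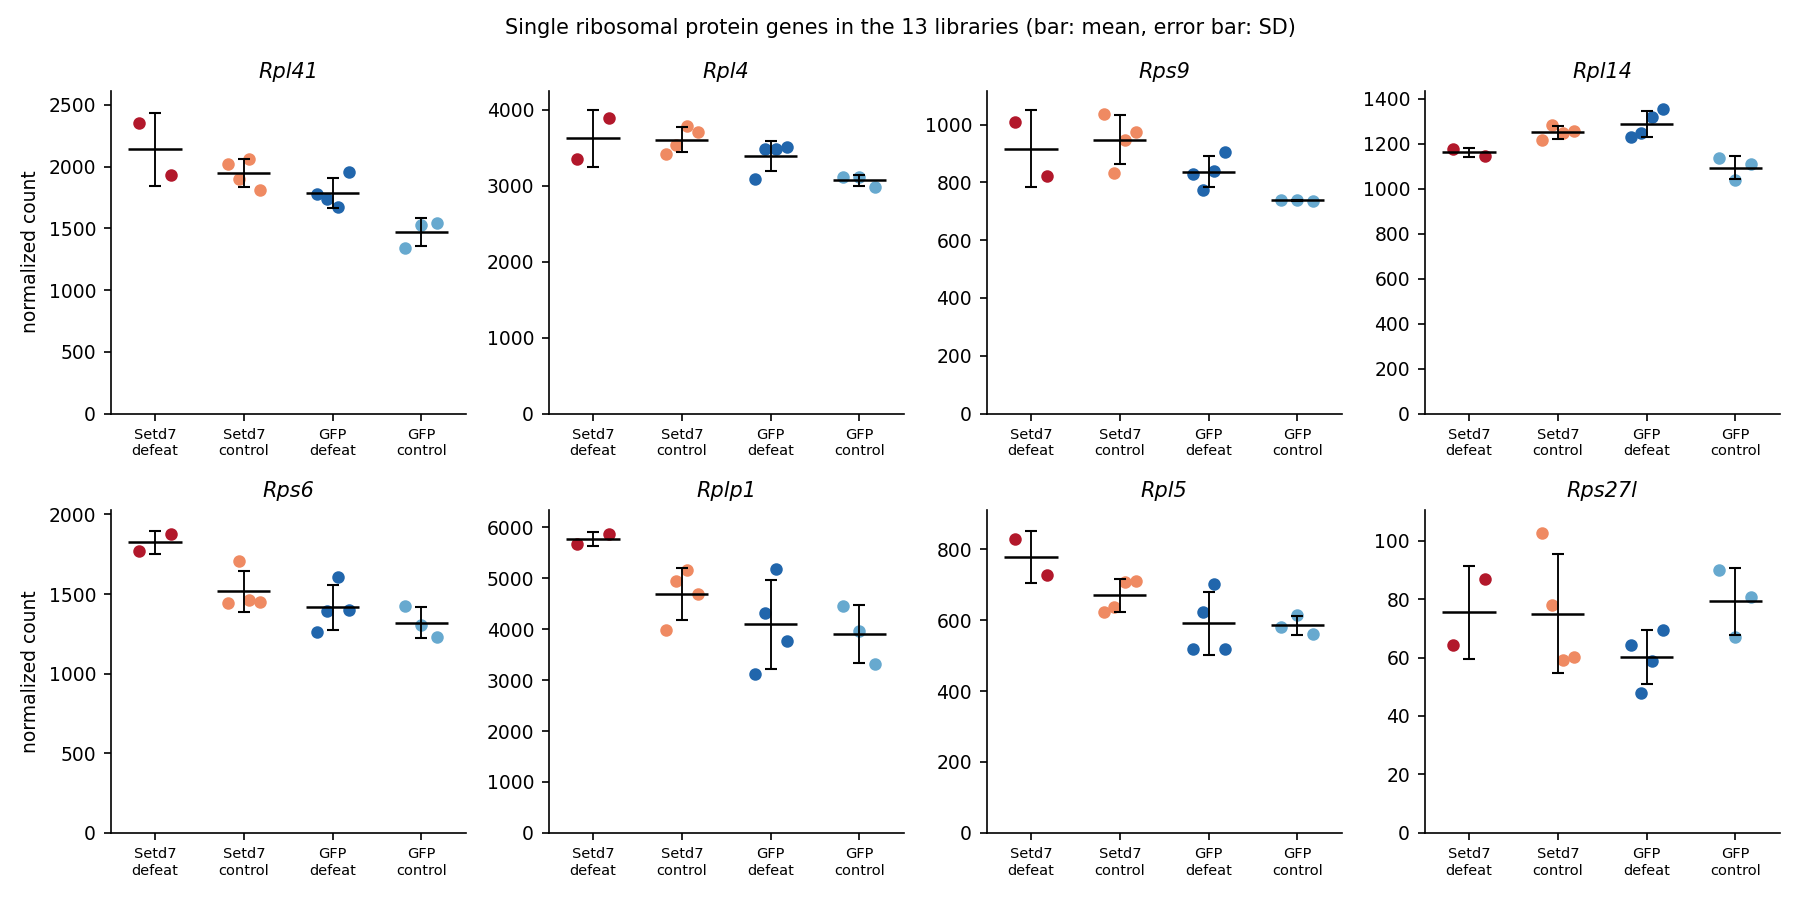
Normalized counts (y axis, from 0) of Rpl41, Rpl4, Rps9, Rpl14, Rps6, Rplp1, Rpl5 and Rps27l in the 4 groups. Points are libraries, lines are means and error bars SD (n = 2, 4, 4 and 3 from left to right). GFP control is lowest for Rpl41 at 1339 to 1547, Setd7 defeat is highest for Rps6 at 1771 and 1877, and Rps27l shows neither order.

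Further members were named for their roles, whatever their values. Rps27a, which is made as a fusion with ubiquitin, had 171, 191, 222 and 207 normalized counts in Setd7 control, against 136, 184 and 169 in GFP control (log2 fold change 0.33 ± 0.14, SE). Rpl10, which completes the large subunit at a late step of its assembly, had 556, 752, 615 and 659 in Setd7 control, against 640.3, 526 and 425 in GFP control (log2 fold change 0.29 ± 0.15, SE). Rps4x, an X-linked small-subunit gene, had 673, 678, 899.7 and 638 in GFP defeat, against 552, 617 and 574 in GFP control (log2 fold change 0.33 ± 0.12, SE). For Rps27a and Rpl10 the groups overlapped, and for Rps4x they did not. In GFP defeat against GFP control, the log2 fold change over the alternatives ranged over 0.096 to 0.23 for Rps27a and -0.17 to 0.24 for Rpl10. In Setd7 control against GFP control it ranged over 0.21 to 0.33 for Rps4x and -0.0028 to 0.47 for Rpl10.

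Ribosome genes that the symbol pattern does not take were examined beside the 81. Among them are Rps3a1 and Rpsa of the small subunit, Fau, which encodes a ribosomal protein fused to a ubiquitin-like domain, Rack1, a scaffold on the small subunit, and the paralogs Rpl22l1 and Rpl7l1. In Setd7 control against GFP control 7 of 7 lay above 0 with a median of 0.17, and in GFP defeat against GFP control 6 of 7 with a median of 0.18; limma called 0 in both. Fau had a log2 fold change of 0.28 ± 0.09 in the first comparison and Rack1 of 0.25 ± 0.09 in the second (SE).

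Other lists of the translation system held different shares, all with 0 calls by limma in these comparisons. Of 78 mitochondrial ribosomal protein genes, 66 lay above 0 in Setd7 control against GFP control (median log2 fold change 0.09) and 48 in GFP defeat against GFP control (median 0.03). Of 18 translation factors and related genes with TOP messages, 15 lay above 0 in both, with medians of 0.15 and 0.09, and Tpt1 had a log2 fold change of 0.25 ± 0.08 in the first (SE). Of 25 ribosome assembly genes 15 and 13 lay above 0 (medians 0.0049 and 0.020), and of 14 tested hosts of small nucleolar RNAs 7 and 6 (medians 0.03 and -0.01). Cytosolic ribosomal protein genes, at 75 and 73 of 81, thus had larger medians than each of these lists in both comparisons, a difference that was not tested.

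Among 20 genes of mTOR signalling, 12 and 11 lay above 0 in the same 2 comparisons, with medians of 0.02 and 0.01. Rps6kb2, an S6 kinase gene, had log2 fold changes of -0.42 ± 0.16 and -0.71 ± 0.16 (SE; limma adjusted p = 0.585 and 0.354), and its paralog Rps6kb1 of -0.21 ± 0.10 and -0.26 ± 0.10 (SE; limma adjusted p = 0.628 and 0.485). Of 18 members of the family that are mutated in human Diamond-Blackfan anaemia, 16 and 15 lay above 0 (medians 0.16 and 0.07). Of 37 nuclear genes of oxidative phosphorylation, whose messages are short like those of ribosomal proteins, 33 and 31 lay above 0, with medians of 0.21 and 0.12. In Setd7 control against GFP control this median equalled that of the ribosomal protein genes to 2 decimals.

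Levels within the family differed widely although most of the proteins are used in near equal amounts. Per kilobase of exon, the median over the 78 coding genes was 434 normalized counts, from 5.67 for Rpl3l to 9012 for Rplp1. Rpl8 followed Rplp1 at 4648 and Rpl37rt at 4044 per kilobase, and Rpl9 at 48.5 and Rps28 at 63.0 were next lowest after Rpl3l. Rpl3l, a muscle paralog of Rpl3, had 2.02 to 17.3 normalized counts in the 13 libraries, where Rpl3 had 1886 to 2695. These lengths come from the GENCODE M21 annotation of build GRCm38, while the table was made on GRCm39. They join the exons of all annotated transcripts of a gene, which lowers the value of genes with long variants. Rpl9 has 2735 bases of exon and a coding sequence of 576.

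Processed copies of these messages bear on such levels. In that annotation 78 of the 81 genes are protein coding and 3, Rpl32l, Rpl37rt and Rps4l, are pseudogenes. The coding sequences of the 78 matched 939 processed pseudogenes at 90% identity or more over at least 80% of their length. At least 1 copy existed for 73 of the 78 genes and 10 or more for 34, the median being 8 and the most 76. Only 25 of the 939 copies have an entry in the table under the same name, and how reads matching several places were counted is not given in the sources used here.

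Several copies were counted more than the genes they match. Rpl32l and Rps4l are annotated with 1 exon, and Rpl37rt and Rpl36al with 2, where the genes they match have 4 to 7. Rpl37rt, 99.66% identical to Rpl37 in coding sequence, had 14.6 times its normalized counts on average, and 11.3 to 17.4 times in single libraries. Rpl32l, 96.04% identical to Rpl32, had 2.99 times its counts, and 2.21 to 4.54 times in single libraries. Rps4l, at 79.95% identity, had 0.807 times those of Rps4x, and Rpl36al, a coding gene at 87.74% identity to Rpl36a, had 3.51 times those of Rpl36a. The copy was above its parent in all 13 libraries for Rpl37rt, Rpl32l and Rpl36al, and below it in all 13 for Rps4l. Levels of Rpl37, Rpl32 and their copies are therefore uncertain 1 by 1, while the 78 genes without the 3 pseudogenes had medians of 0.21 and 0.17 in Setd7 control and in GFP defeat against GFP control.

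**Figure D5:**
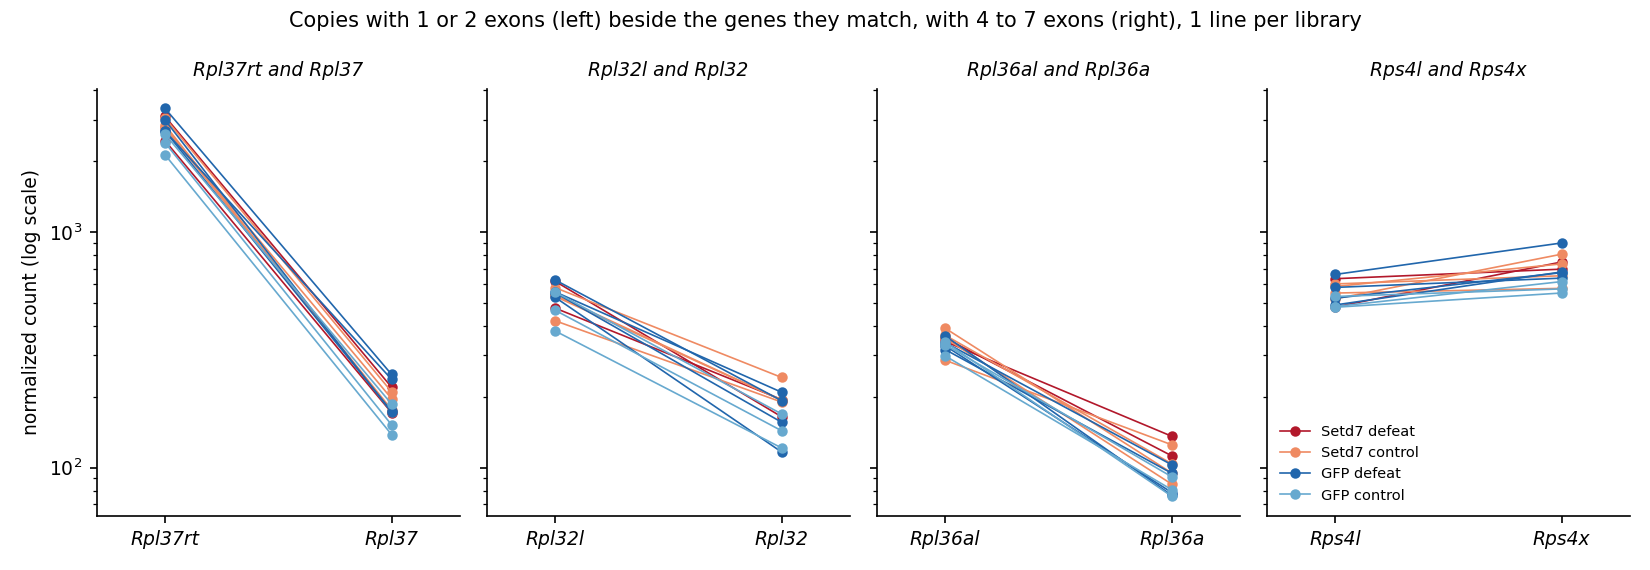
Normalized counts (y axis, log scale) of 4 copies with 1 or 2 annotated exons (left of each panel) and of the genes they match, with 4 to 7 exons (right of each panel), 1 line per library, coloured by group. Rpl37rt lies above Rpl37 11.3 to 17.4-fold in single libraries, and Rps4l lies close below Rps4x.

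Among the 25 copies with an entry that are not members, 10 were counted above their gene. Rps6-ps4, of identical coding sequence to Rps6, averaged 5433 normalized counts and Rps6 1488. Gm11478 averaged 4317 and Rpl13a 1051, Gm15772 averaged 1803 and Rpl26 183, and Gm12191 averaged 1268 and Rpl30 126. Summed over the 25 copies, libraries held 20139 to 20924 in Setd7 defeat, 19624 to 21656 in Setd7 control, 18432 to 20756 in GFP defeat and 18306 to 18682 in GFP control. GFP control was below both Setd7 groups but overlapped GFP defeat replicate 3. Of 20 copies tested, 18 lay above 0 in Setd7 control against GFP control (median log2 fold change 0.09) and 15 in GFP defeat against GFP control (median 0.08).

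Fold changes were set beside the level and the copies of each gene. Across the 78 coding genes, Spearman's rho between the mean normalized count and the log2 fold change was 0.0014 for Setd7 control against GFP control and 0.04 for GFP defeat against GFP control. Between the number of copies and the log2 fold change rho was -0.22 and -0.24, and between the number of copies and the count per kilobase -0.15, so fold changes tended to be lower for genes with more copies and had little relation to the level. These correlations run across genes of the same libraries, which are not independent. The 34 genes with 10 or more copies had median log2 fold changes of 0.17 and 0.11 in the 2 comparisons, the 39 with 1 to 9 copies 0.22 and 0.19, and the 5 with none 0.24 and 0.26. Among the 21 genes with a mean of 1000 or more normalized counts the medians were 0.21 and 0.19.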

How the data were processed

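Per the labels, a TruSeq RiboZero kit was used on total RNA of VTA tissue, extracted with an RNeasy Micro kit. Per the submitters' processing notes, Bowtie2, featureCounts and DESeq2 were used with GRCm39, without versions. The authors deposited a signal table of gene counts divided by a size factor per sample, with 26264 genes. Here whole reads were recovered from its steps: 341432 of 341432 values were whole to within 0.01.

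The main test, limma-trend (limma 3.58.1 in R 4.3.3), was run on log2(normalized count + 1) of all 13 samples, with 4 group means and sex, two-sided, with Benjamini-Hochberg adjustment over the 17755 genes with 10 or more normalized counts in 2 samples. edgeR 4.0.16 and DESeq2 1.42.0 on recovered reads were alternatives. A fold change on this scale understates the change of low genes. All 3 tools were tested on simulated data. Named genes are the 6 higher and 4 lower members per pairwise comparison with the smallest p and a mean of 30 or more, and members fixed for their role. Copies were found with blastn 2.17.0. The members and the lists were chosen with earlier results of these data known. Depth was 26548713 to 50842070 reads per sample. Single-gene values are left out for 2 genes.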

Additional observations from a re-analysis of the deposited data

Results flagged for a closer look

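In 80 groups of 4 samples, each group being a named ribosomal protein gene or the family's share in the Setd7 control or GFP defeat libraries, 6 held a library whose gap to the nearest other, divided by the range of the group, was above the Dixon limit of 0.829. Chance gives about 1 in 20 groups.

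In Setd7 control replicate 2, Rps6 had 1708 normalized counts (1446 to 1465 in the 3 others) and Rpl11 had 142 (195 to 198). In Setd7 control replicate 3, Rpl32 had 242 (190 to 194). In GFP defeat replicate 3, Rps4x had 899.7 (638 to 678) and Rps25 had 270.2 (177 to 183). In GFP defeat replicate 1, Rpl4 had 3090.1 (3477 to 3509). These 6 values fall in 4 libraries and in both directions, and what set them was not tested.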

How the results depend on the processing

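No paired analysis was possible because the labels give no replicate numbers shared between groups. For named genes, the single-gene fits kept their side of the adjusted p threshold in 2391 of 2392 values. These values leave out Setd7 defeat against GFP control, the averaged effects and the interaction. The exception was Rpl41 in Setd7 control against GFP control, at a log2 fold change of 0.40 with DESeq2 (adjusted p = 0.0435). Direction was not always kept. Over the alternatives the log2 fold change of Rplp0 in Setd7 defeat against GFP defeat ranged over -0.27 to 0.49. That of Rpl10 in GFP defeat against GFP control ranged over -0.17 to 0.24. DESeq2 called 1 ribosomal protein gene, Rpl41, where limma called 0, in Setd7 control against GFP control, in Setd7 defeat against GFP control and in the averaged Setd7 effect; the cause was not tested.

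Leaving out each library in turn, the median log2 fold change of the 81 genes ranged over 0.19 to 0.22 for Setd7 control against GFP control and over 0.16 to 0.18 for GFP defeat against GFP control. The range was -0.018 to 0.11 for Setd7 defeat against GFP defeat, -0.095 to 0.10 for Setd7 defeat against Setd7 control, 0.14 to 0.36 for Setd7 defeat against GFP control, 0.067 to 0.18 for the averaged Setd7 effect, 0.047 to 0.16 for the averaged defeat effect and -0.25 to -0.067 for the interaction. The ends of the ranges that involve Setd7 defeat come from leaving out 1 of its 2 libraries, which leaves a lone library assumed to vary like the other groups. With scaling to total reads the medians were 0.18 and 0.14 for the first 2 comparisons. Without Rn45s in the total, the family's share was 0.197% in GFP defeat and 0.177% in GFP control. The number of genes lower without overlap in Setd7 defeat against Setd7 control was 1 with scaling to total reads, an alternative chosen after seeing the data, as was leaving out the 3 pseudogenes.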
